A study of Homo sapiens with 16 samples.

Results

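The E2F and DP transcription factors were followed through 16 RNA-seq libraries of human embryonic kidney HEK-293 cells that were induced to make HCF-2. The members are the genes named E2F1 to E2F8, TFDP1 and TFDP2, which gave 10 genes of the 57820 in the table, and all 10 were among the 18925 genes tested. Genes were tested where they had an FPKM (fragments scaled by transcript length and by library size) above 1 in at least 1 library.

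The cells were Flp-In T-REx-HEK-293 lines, in which a transgene sits at 1 integration site behind a promoter that doxycycline switches on. One line carried Flag- and Cherry-tagged wild-type HCF-2 (HCF-2 WT) and the other the same protein with substitutions in the fibronectin type III repeats (HCF-2 Fn3nc*). Each line was sampled in duplicate 1, 2, 4 and 6 days after doxycycline was added, so that 8 groups of 2 libraries were compared. All groups shared the parental line, the vector, the antibiotic selection and the drug, and every library analysed here came from induced cells. The sources name 1 line per transgene and say only that induction was in duplicate. A difference between the lines therefore cannot be told apart from a difference between the 2 cell populations, and the spread behind each p-value is that of these duplicates, part of which may be technical.

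E2F proteins bind DNA as dimers with a DP partner and control the genes that carry a cell from G1 into S phase. E2F1, E2F2 and E2F3 are classed as activators, and the pocket protein pRB holds them inactive until cyclin-dependent kinases phosphorylate it. E2F4 and E2F5 act mostly as repressors together with the pocket proteins p107 and p130, E2F6 represses with a Polycomb complex and without a pocket protein, and the atypical E2F7 and E2F8 repress without a DP partner. HCF-2 is a paralog of HCF-1, a co-regulator of transcription that some E2F proteins bind.

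The promoters of several members carry E2F sites of their own, and these are shown because they are the sequence through which E2F proteins are known to act on their own genes. Promoter sequences from RefSeq on GRCh38.p14, 250 bases before to 50 bases after each start, were found for 8 of the 10 members and gave 11 promoters. The 8 forms TTTCCCGC, TTTCCCGG, TTTCGCGC, TTTCGCGG, TTTGCCGC, TTTGCCGG, TTTGGCGC and TTTGGCGG were searched on both strands, and overlapping matches were counted separately. At least 1 form was present in 6 of the 11 member promoters (54.5%) and in 2174 of all 35116 promoters (6.19%). At least 2 matches were present in 4 member promoters (36.4%) and in 133 of all promoters (0.379%). In the windows below, written 5′ to 3′ on the strand of the gene, capitals mark the matches.
E2F1, chr20:33686397-33686423, minus strand: cTTTCGCGGCAAAaaggaTTTGGCGCg
E2F2, chr1:23531266-23531292, minus strand: aaTTTCGCGGcacgacgTTTGGCGCta
E2F3, chr6:20401823-20401850, plus strand: ccgGCGGGAAAtccgagTTTCGCGGgag
E2F6, chr2:11466327-11466354, minus strand: accgctgggtTTTCCCGGttgcctcttt
E2F6, chr2:11466222-11466249, minus strand: gcggtccgggTTTCCCGGgcggcagccg
TFDP1, chr13:113584623-113584650, plus strand: ggcgccgaagGCGCGAAAaggcgcgcag
TFDP2, chr3:142149509-142149536, minus strand: tgctgctccgCCGCCAAAgctcgcgcgg

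The 3 activating E2Fs each had a window with at least 2 matches. That of E2F1 held 3, of which the first 2 overlap on opposite strands, and the last began 20 bases before the start of transcription. E2F1 and E2F2 both held TTTCGCGG followed by TTTGGCGC. The downstream start of E2F3 and the promoters of E2F4 and E2F7 held none of the 8 forms within the 300 bases read. The TFDP2 promoters at chr3:142028577-142028876 and chr3:142029131-142029430 held none either. These matches describe the letters only.

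Depth was 20270033 to 31006448 expected counts per library, and the 2 HCF-2 Fn3nc* libraries of day 1 were the deepest HCF-2 Fn3nc* libraries and the deepest of all 16. Between the lines 34.2% of genes tested were called on day 1, and 16.6%, 22.2% and 30.0% on days 2, 4 and 6. Within HCF-2 Fn3nc* 14.9% were called between days 1 and 2 and 2.86% between days 2 and 6, against 0.301% and 20.8% within HCF-2 WT. Replicate 2 of HCF-2 WT day 4 had 36342 genes with a count, against 26334 to 31607 in the other 15 libraries. HCFC2, the gene of HCF-2, was counted at 901 to 1441 CPM (counts scaled to library size) on average in the 8 groups, without separating transgene from endogenous reads, and was lowest on day 1 in both lines. Of 7 HEK-293 markers, 5 lay between 17.0 and 522 FPKM, whereas PAX2 reached at most 1.07 and NEFM at most 0.56 FPKM. The summed level of 5 blood cell markers was 0.26 to 0.84 FPKM in HCF-2 WT and 0.57 to 2.10 FPKM in HCF-2 Fn3nc*, where 1.98 and 2.10 FPKM were the sums of day 1. Summed fibroblast markers were 2.10 to 3.97 and 3.62 to 6.09 FPKM in the lines, and the endothelial, hepatocyte and squamous epithelium lists each summed to at most 1.03 FPKM. The part of these levels in the results was not tested.

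Levels of different members can be compared in FPKM, which corrects for transcript length. TFDP1, the main DP partner, was the highest in every library, at 99.4 to 162 FPKM. In HCF-2 WT on day 6 it was followed by E2F1 at 54.0 ± 0.636, E2F4 at 27.7 ± 0.651, E2F3 at 25.4 ± 0.297 and TFDP2 at 23.2 ± 0.375 FPKM (mean ± SD, n = 2). E2F5, E2F2, E2F6 and E2F7 came next at 18.1 to 15.9 FPKM, and in this order the libraries of E2F5 and E2F2, and those of E2F6 and E2F7, overlapped. E2F8 was lowest at 3.65 ± 0.361 FPKM. In HCF-2 Fn3nc* on day 6 the order was different, with E2F4 at 44.9 ± 1.27 FPKM above E2F1 at 31.8 ± 0.721 FPKM, while E2F8 was again lowest, at 10.2 ± 0.771 FPKM. The libraries of TFDP2 and E2F3, and those of E2F2 and E2F5, overlapped in that line.

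**Figure D1:**
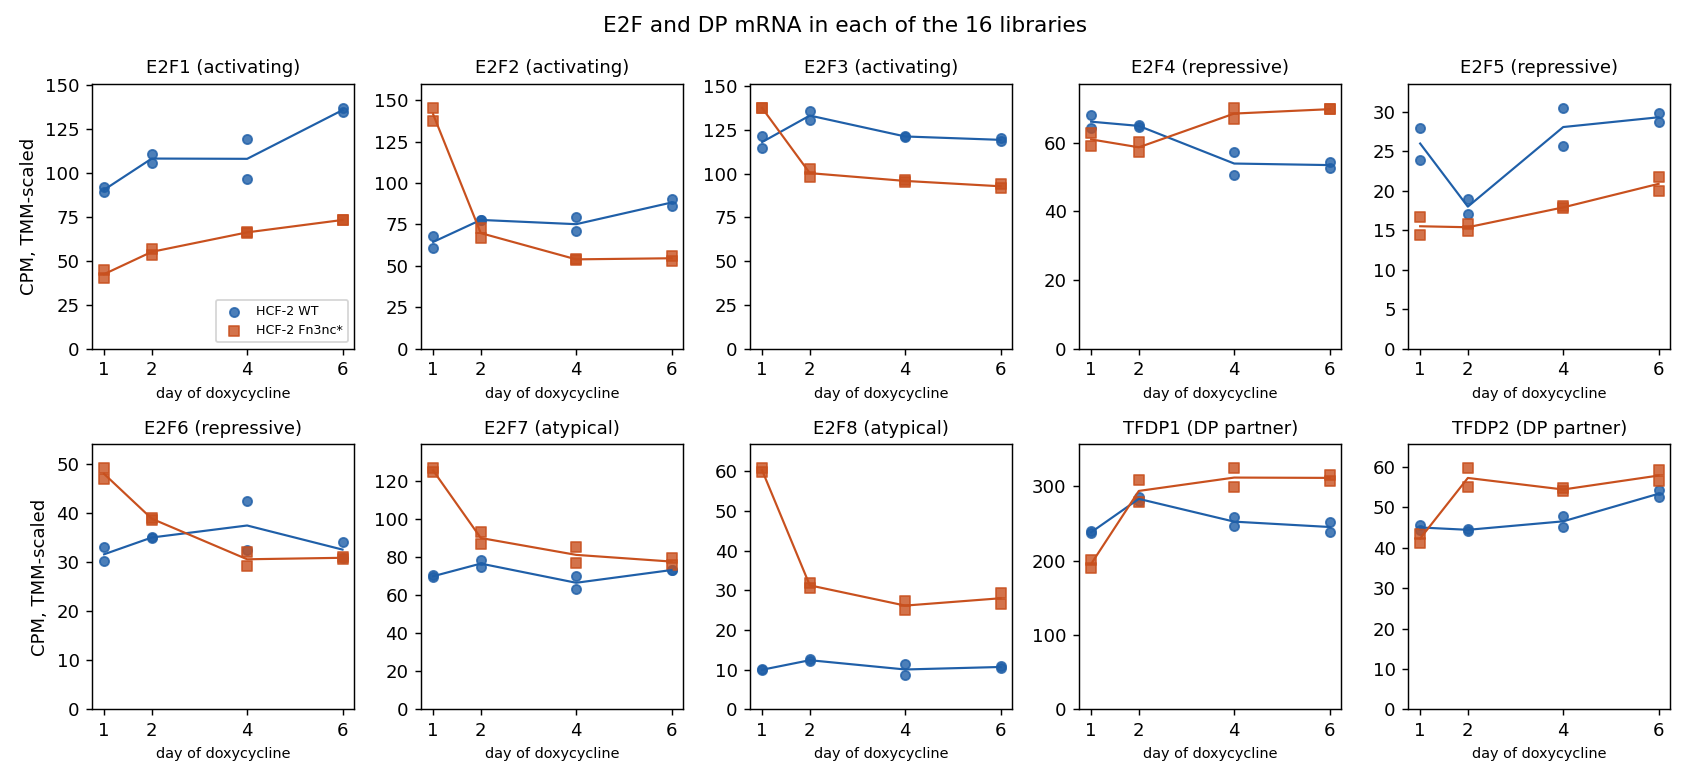
Expression of each member (vertical axis, CPM scaled by TMM, from 0) against day of doxycycline (horizontal axis). Each point is 1 library, circles for HCF-2 WT and squares for HCF-2 Fn3nc*, and lines join the means of 2 libraries. E2F1 is lower in HCF-2 Fn3nc* on each day, E2F8 is higher on each day, and E2F2 falls from 141 to 54.6 CPM in HCF-2 Fn3nc*.

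E2F1, the activator best known for driving both S-phase entry and apoptosis (ENSG00000101412, chr20:32263283-32274191 on GRCh37, minus strand), rose over the 6 days in both lines. Its level in HCF-2 WT was 88.8 and 91.7 CPM on day 1, 111 and 105 on day 2, 96.5 and 119 on day 4, and 134 and 137 on day 6. The HCF-2 Fn3nc* libraries had 40.1 and 44.6 CPM on day 1, 53.3 and 56.7 on day 2, 66.5 and 65.6 on day 4, and 73.4 and 72.9 on day 6. Every HCF-2 Fn3nc* library lay below every HCF-2 WT library. By day 6 E2F1 had risen by 0.56 on the log2 scale in HCF-2 WT (SE 0.10, adjusted p = 0.000972) and by 0.75 in HCF-2 Fn3nc* (SE 0.07, adjusted p = 1.55e-05). The difference between these responses was 0.20 (SE 0.12, adjusted p = 0.221). E2F1 was 0.469-fold as high in HCF-2 Fn3nc* as in HCF-2 WT on day 1 (log2 -1.09, adjusted p = 8.06e-08) and 0.540-fold on day 6 (log2 -0.89, adjusted p = 8.51e-07).

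E2F2 (ENSG00000007968, chr1:23832930-23857725, minus strand), an activator that overlaps with E2F1 in its targets, fell in HCF-2 Fn3nc*. Its level there was 138 and 145 CPM on day 1, 66.9 and 72.6 on day 2, 53.4 and 54.4 on day 4, and 56.2 and 53.0 on day 6. The HCF-2 WT libraries had 60.8 and 67.9 CPM on day 1 and 86.0 and 90.3 on day 6. The day 1 libraries of HCF-2 Fn3nc* stood well above all others. By day 2 E2F2 had fallen by a log2 change of -1.04 and by day 6 of -1.41 (SE 0.07, adjusted p = 2.39e-07), and the day 6 value of HCF-2 WT was 0.43 (SE 0.09, adjusted p = 0.00257), under the fold threshold of 0.5, which it passed at 0.53 without replicate 2 of day 1. The responses differed by -1.83 (SE 0.11, adjusted p = 1.94e-08), and still by -0.54 when counted from day 2 (SE 0.11, adjusted p = 0.00225). The line difference changed sign, from 1.14 on day 1 to -0.69 on day 6, with adjusted p = 1.21e-08 and 3.2e-06, and the day 6 value was under the fold threshold, at -0.49, with limma on log2(FPKM + 1).

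E2F3 (ENSG00000112242, chr6:20402110-20493945, plus strand), the activator that is needed for normal proliferation in mouse fibroblasts, was 114 to 136 CPM over the HCF-2 WT libraries. HCF-2 Fn3nc* libraries had 137 and 138 CPM on day 1, 98.1 and 102 on day 2, and 93.9 and 91.7 on day 6. The day 1 libraries lay above all later ones in that line. E2F3 fell by 0.60 by day 6 in HCF-2 Fn3nc* (SE 0.06, adjusted p = 1.67e-05), and the value in HCF-2 WT was -0.01 (adjusted p = 0.97). The responses differed by -0.58 from day 1 (adjusted p = 6.66e-05) and by 0.05 from day 2 (adjusted p = 0.744).

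Among the repressive E2Fs, E2F4 (ENSG00000205250, chr16:67226058-67232821, plus strand), the main partner of p130 in resting cells, was not called within either line. HCF-2 WT libraries had 64.2 and 67.9 CPM on day 1, and 52.5 and 54.4 on day 6. Those of HCF-2 Fn3nc* had 59.0 and 62.8 CPM on day 1, and 69.7 and 69.8 on day 6. Days 1 and 6 did not overlap within either line, but the log2 values of -0.33 in HCF-2 WT (adjusted p = 0.0111) and 0.16 in HCF-2 Fn3nc* (adjusted p = 0.0697) were under the fold threshold. The difference between them passed its test, at 0.50 from day 1 (SE 0.10, adjusted p = 0.00125) and 0.53 from day 2 (SE 0.10, adjusted p = 0.00168). Between the lines on day 6, E2F4 was higher in HCF-2 Fn3nc* by 0.38 with edgeR (adjusted p = 0.000439), under the fold threshold. That value reached 0.69 under the alternatives, which include FPKM. The transcript length implied by counts and FPKM, set against HCF-2 WT day 1, shifted on day 6 by 0.142 in HCF-2 WT and -0.043 in HCF-2 Fn3nc*.

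E2F5 (ENSG00000133740, chromosome 8, plus strand), a close relative of E2F4, was lowest on day 2 in HCF-2 WT. Its level in that line was 28.01 and 24.0 CPM on day 1, 17.0 and 18.9 on day 2, 30.5 and 25.6 on day 4, and 29.8 and 28.8 on day 6. The HCF-2 Fn3nc* libraries had 14.3 and 16.7 CPM on day 1 and 20.03 and 21.7 on day 6. The day 2 libraries of HCF-2 WT lay below the other 6 of that line. The day 2 value from day 1 was -0.53 and was not called (adjusted p = 0.127, 0.00991 to 0.972 under the alternatives), although DESeq2 called it, as did edgeR with replicate 1 or replicate 2 of day 4 of that line left out. From day 2 to day 6 E2F5 rose by 0.68 on the log2 scale in HCF-2 WT (SE 0.12, adjusted p = 0.00113). E2F5 was lower in HCF-2 Fn3nc* on day 1 (log2 -0.74, adjusted p = 3.35e-05) and day 4 (log2 -0.65, adjusted p = 0.000236), and the day 6 value of -0.49 was just under the fold threshold (adjusted p = 0.00154) and passed it in 8 of the 16 fits with 1 library left out.

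E2F6 (ENSG00000169016, chr2:11584501-11606303, minus strand), the Polycomb-associated repressor, was 30.2 to 42.5 CPM in HCF-2 WT. Its level in HCF-2 Fn3nc* was 49.1 and 46.9 CPM on day 1, 39.1 and 38.7 on day 2, 29.2 and 32.1 on day 4, and 30.7 and 31.1 on day 6. Only the day 1 libraries of HCF-2 Fn3nc* lay above all HCF-2 WT libraries. E2F6 fell by 0.67 by day 6 in HCF-2 Fn3nc* (SE 0.07, adjusted p = 3.05e-05), and was higher in that line on day 1 by 0.60 (adjusted p = 0.000147). That line difference was 0.93 with limma on log2(FPKM + 0.1), and the transcript length implied by counts and FPKM was shorter in HCF-2 Fn3nc* than in HCF-2 WT on day 1, by a log2 shift of -0.264. On day 6 the line difference was -0.08 (adjusted p = 0.589). The day 6 responses of E2F6 differed by -0.68 from day 1 (adjusted p = 0.00208), and the difference was -0.23 from day 2 (adjusted p = 0.304). The expected counts of E2F6 and TFDP2 were not whole numbers in 16 of 16 libraries, and those of E2F5 in 15 (beyond 0.005 of a whole count), as happens when RSEM divides reads between loci, so the values of these 3 genes are less certain.

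The atypical E2F7 and E2F8, which repress E2F targets late in S phase and in G2, both fell in HCF-2 Fn3nc* from a high day 1 level. E2F7 (ENSG00000165891, chr12:77415028-77459349, minus strand) was in HCF-2 Fn3nc* 126 and 124 CPM on day 1, 93.1 and 86.8 on day 2, 77.0 and 85.2 on day 4, and 75.9 and 79.3 on day 6. Over the 8 HCF-2 WT libraries it was 63.1 to 78.4 CPM. On each day both HCF-2 Fn3nc* libraries lay above both HCF-2 WT libraries, by the least on day 6. E2F7 fell by 0.73 by day 6 in HCF-2 Fn3nc* (SE 0.07, adjusted p = 1.42e-05), and the responses differed by -0.76 (adjusted p = 3.42e-05). From day 2 the difference was -0.15 (adjusted p = 0.32). The line difference was 0.84 on day 1 (adjusted p = 1.21e-07) and 0.09 on day 6 (adjusted p = 0.353).

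E2F8 (ENSG00000129173, chr11:19245610-19263167, minus strand) had the largest line difference of the 10 members on each of the 4 days. Its level in HCF-2 WT was 10.2 and 9.84 CPM on day 1, 12.1 and 12.7 on day 2, 11.3 and 8.80 on day 4, and 10.8 and 10.6 on day 6. The HCF-2 Fn3nc* libraries had 60.7 and 59.8 CPM on day 1, 30.7 and 31.9 on day 2, 25.1 and 27.3 on day 4, and 26.7 and 29.4 on day 6. Every HCF-2 Fn3nc* library lay above every HCF-2 WT library. The difference was 6.02-fold on day 1 (log2 2.59, SE 0.10, adjusted p = 8e-11) and 2.62-fold on day 6 (log2 1.39, SE 0.10, adjusted p = 6.55e-08). Within HCF-2 Fn3nc*, E2F8 fell by 1.14 by day 6 (SE 0.07, adjusted p = 1.42e-06). The response differed between the lines by -1.20 from day 1 (adjusted p = 1.46e-05) and by 0.05 from day 2 (adjusted p = 0.845).

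TFDP1, which encodes DP1 (ENSG00000198176, chr13:114239036-114295788, plus strand), rose in HCF-2 Fn3nc*. Its level there was 201 and 190 CPM on day 1, 309 and 279 on day 2, 299 and 324 on day 4, and 307 and 316 on day 6. The HCF-2 WT libraries had 240 and 237 CPM on day 1, 285 and 281 on day 2, and 239 and 252 on day 6. The day 1 libraries were the lowest in HCF-2 Fn3nc*, and in HCF-2 WT days 1 and 6 overlapped. TFDP1 rose by 0.63 by day 6 in HCF-2 Fn3nc* (SE 0.07, adjusted p = 5.21e-05), and the responses differed by 0.63 (adjusted p = 0.000164). From day 2 the difference was 0.29 (adjusted p = 0.0438), a call that was lost in 11 of the 16 fits with 1 library left out and without both HCF-2 Fn3nc* day 1 libraries.

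TFDP2, the gene of the second DP partner (ENSG00000114126, chr3:141663270-141868386, minus strand), was 44.4 and 45.6 CPM on day 1 and 52.5 and 54.2 on day 6 in HCF-2 WT. In HCF-2 Fn3nc* TFDP2 was 43.4 and 41.1 CPM on day 1 and 56.5 and 59.1 on day 6. Days 1 and 6 did not overlap in either line, but the log2 values of 0.22 (adjusted p = 0.0508) and 0.42 (adjusted p = 0.000545) were under the fold threshold. TFDP2 counts and FPKM did not scale alike: the transcript length implied by their ratio, set against that of HCF-2 WT day 1, was longer by 0.37 on the log2 scale in HCF-2 Fn3nc* on day 1 and by 0.39 on day 6. The median shift over 12223 genes was -0.0104 and -8.58e-05. On day 4 the line difference of TFDP2 was 0.23 in counts with edgeR (adjusted p = 0.0145) and -0.33 with limma on log2(FPKM + 1) (adjusted p = 0.00415), so its sign depended on the unit and neither value reached the fold threshold.

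Over the members, the comparisons with day 1 share the day 1 libraries of their line. In HCF-2 WT, edgeR called 0 of 10 on day 2, where 0.301% of all genes tested were called. At an unadjusted p under 0.05 there were 6 members, DESeq2 called 1 and limma 0. On day 4 edgeR called 0 of 10 against 7.0% of all genes, with 3 members at an unadjusted p under 0.05 and 0 called by DESeq2 or limma. On day 6 it called 1, E2F1, as higher, against 21.2% of all genes (13.2% higher). From day 2 to day 6 it called 1, E2F5, as higher, against 20.8% of all genes (13.1% higher).

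Of the 10 members in HCF-2 Fn3nc*, 4 were called on day 2 against 14.9% of all genes: TFDP1 was higher, where 4.18% of all genes were, and E2F2, E2F7 and E2F8 were lower, where 10.7% were. E2F7 lay at the edge of the fold threshold there, at -0.50, and was not called by DESeq2, nor when 1 of 5 libraries of that line was left out (replicate 1 of days 1, 4 or 6, or replicate 2 of days 2 or 4). TFDP1 was not called without replicate 1 of day 2. On day 4, 7 members were called against 23.5% of all genes, 2 higher (8.04% of all genes) and 5 lower (15.4%). On day 6, 7 members were called against 24.3%: E2F1 and TFDP1 were higher, where 8.89% of all genes were, and E2F2, E2F3, E2F6, E2F7 and E2F8 lower, where 15.4% were. From day 2 to day 6, edgeR called 0 of 10 against 2.86% of all genes, with 7 members at an unadjusted p under 0.05 and 0 called by DESeq2 or limma.

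Between the lines, 6 members were called on day 1 against 34.2% of all genes: E2F2, E2F6, E2F7 and E2F8 were higher in HCF-2 Fn3nc* (18.7% of all genes), and E2F1 and E2F5 lower (15.5%). On day 2 there were 2 against 16.6%, E2F8 higher (9.08%) and E2F1 lower (7.57%). On day 4 there were 3 against 22.2%, E2F8 higher (10.1%) and E2F1 and E2F5 lower (12.1%). On day 6 there were 3 against 30.0%, E2F8 higher (13.2%) and E2F1 and E2F2 lower (16.8%). E2F1 and E2F8 were thus called on all 4 days, and the share of all genes called on every day was not counted. The day 6 response differed between the lines for 7 members against 36.1% of all genes when counted from day 1, 2 higher in HCF-2 Fn3nc* (16.1%) and 5 lower (20.0%). Counted from day 2 it differed for 3 against 24.3%, E2F4 and TFDP1 higher (10.3%) and E2F2 lower (13.9%). In these bulk libraries, fewer cells of a kind and less RNA per cell cannot be told apart.

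**Figure D2:**
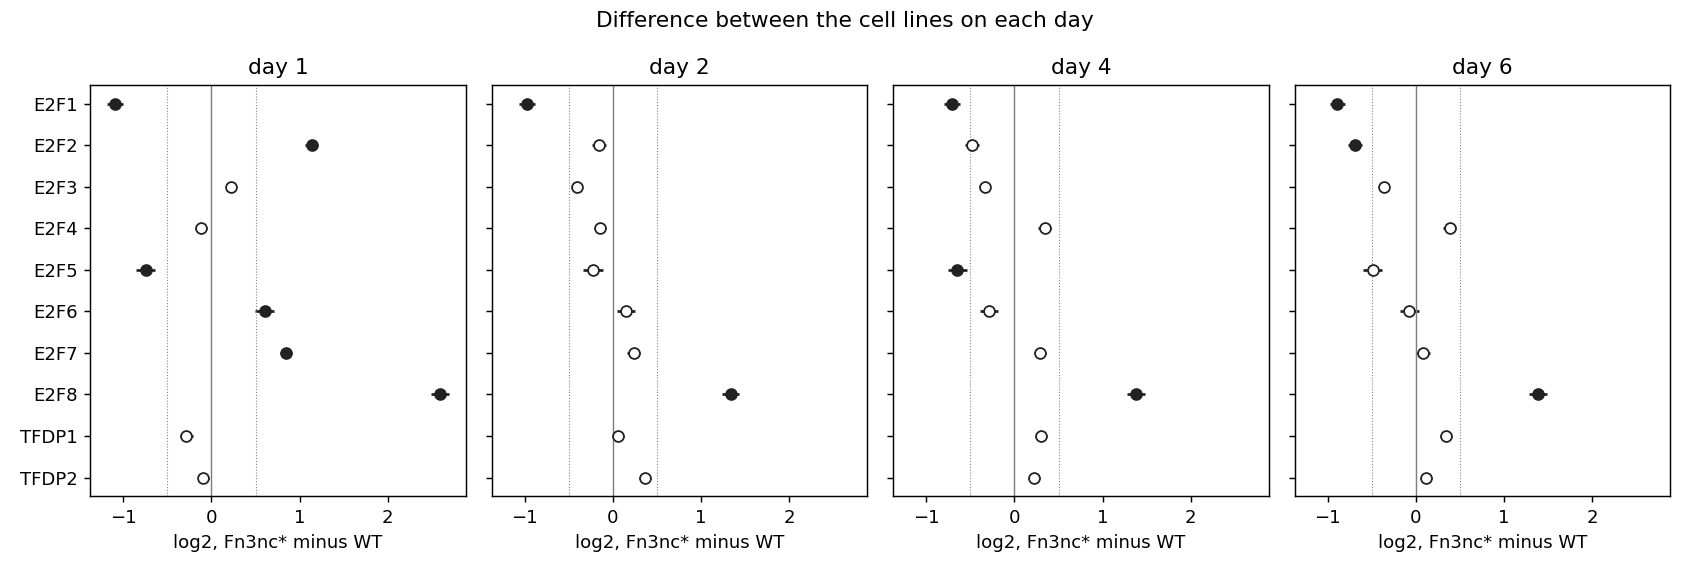
Difference between the lines on each day (horizontal axis, log2 of HCF-2 Fn3nc* minus HCF-2 WT) for the 10 members (vertical axis), with SE bars from the fit of 16 libraries. Filled points passed the test, dotted lines mark 0.5 and -0.5. E2F8 stays between 1.33 and 2.59, E2F1 between -1.09 and -0.71, and E2F2 changes side after day 1.

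The balance of activating and repressive E2Fs was described as a ratio of summed FPKM, without a test. E2F3 was counted whole as an activator: the authors name its form E2F3a as one, and values per gene do not separate forms. E2F1 to E2F3 over E2F4 to E2F6 was 1.03 and 1.14 on day 1 in HCF-2 WT, 1.33 and 1.29 on day 2, 1.18 and 1.41 on day 4, and 1.55 and 1.58 on day 6. For HCF-2 Fn3nc* it was 1.04 and 1.02 on day 1, 0.908 and 0.894 on day 2, 0.847 and 0.888 on day 4, and 0.900 and 0.873 on day 6. With E2F6 counted, the lines overlapped on day 1 and were apart on each later day. The ratio was then above 1 in HCF-2 WT and below 1 in HCF-2 Fn3nc*. The day 1 overlap depended on E2F6, which averaged 29.9 FPKM in HCF-2 Fn3nc* and 15.6 FPKM in HCF-2 WT on that day. Without E2F6 the lines were already apart on day 1, with HCF-2 Fn3nc* higher. The change of this ratio by day 6 in HCF-2 Fn3nc* was -0.22 on the log2 scale, and -0.55 without E2F6, one of the genes with less certain counts.

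E2F1 to E2F3 over the atypical E2F7 and E2F8 was 4.15 and 3.90 on day 1 in HCF-2 WT and 4.93 and 5.01 on day 6. For HCF-2 Fn3nc* it was 1.49 and 1.52 on day 1 and 2.17 and 2.27 on day 6. That ratio was higher on day 6 than on day 1 in both lines, and the lines did not overlap on any day. Within the activators E2F1 made up 49.1% and 47.6% on day 1 and 55.6% and 55.8% on day 6 in HCF-2 WT. In HCF-2 Fn3nc* its share was 22.0% and 23.0% on day 1 and 48.4% and 48.7% on day 6. All E2Fs over both DP partners came to 1.72 and 1.90 on day 1 and 0.952 and 0.906 on day 6 in HCF-2 Fn3nc*, and to 1.21 and 1.28, then 1.39 and 1.34, in HCF-2 WT.

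**Figure D3:**
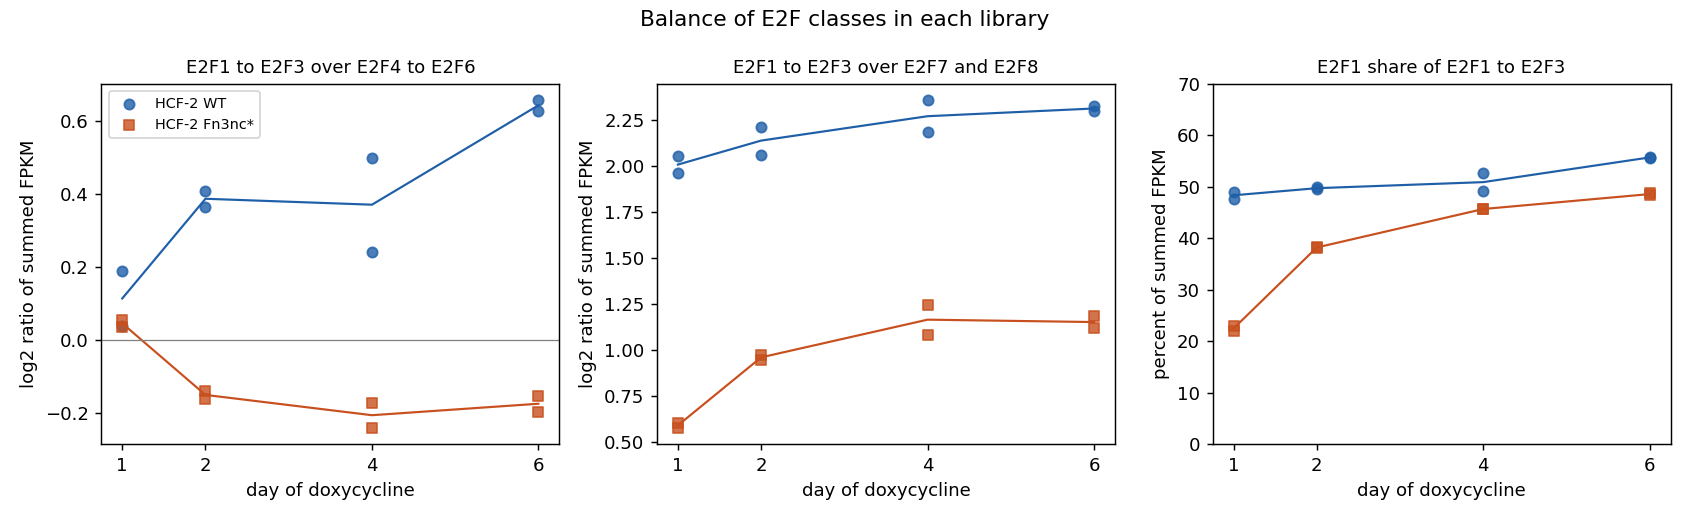
Balance of E2F classes in each library against day of doxycycline: log2 ratio of summed FPKM of activating over repressive E2Fs (left) and over atypical E2Fs (middle), and the percent of activating FPKM that is E2F1 (right). Points are libraries and lines join means of 2. With E2F6 counted, as drawn, the lines part after day 1 on the left, and the E2F1 share in HCF-2 Fn3nc* goes from 22.5% to 48.6%.

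Correlations between members were described within each line. Over the 8 libraries of HCF-2 WT, log2 CPM of E2F1 and E2F2 had a Pearson r of 0.957, and over those of HCF-2 Fn3nc* -0.938. E2F7 and E2F8 had 0.905 and 0.974. These values describe 4 days in duplicate and share the day structure. Of 11410 genes compared over the 16 libraries, those most like E2F1 were B4GALT2, SLC25A6 and AKT1 (r of 0.991, 0.987 and 0.987). For E2F8 they were CYLD, FAM214A and MXD1 (0.995, 0.991 and 0.987), and for E2F7 IST1, C18orf25 and NOP14 (0.983, 0.977 and 0.976). E2F2 was most like HKR1, IRX5 and PRC1 (0.960 to 0.952), and E2F3 most like USP7, ZNF263 and BACH2 (0.956 to 0.939). E2F4 was most like CTU2, DRG2 and SPATA33, E2F5 most like ACPL2, XPOT and ADD3, and E2F6 most like PPP2R3C, MARCH7 and ZNF569, all between 0.931 and 0.959. TFDP1 was most like CTSV, MBTPS1 and NFIA (0.961 to 0.957), and TFDP2 most like HCFC2, GUCY1A3 and TSEN34 (0.936 to 0.933). The HCFC2 level includes reads of the transgene. Over the 16 libraries, r joins differences between the lines with those between days. Without the 2 day 1 libraries of HCF-2 Fn3nc* these r values were 0.848 to 0.991.

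Of the pocket proteins, which hold E2F in check, RBL1 fell and RBL2 rose by day 6 in HCF-2 Fn3nc*, and RB1 fell in both lines. RB1, the gene of pRB, fell by 0.51 by day 6 in HCF-2 Fn3nc* and by 0.50 in HCF-2 WT, both at the edge of the fold threshold. It was higher in HCF-2 Fn3nc* by 1.02 on day 1 and 1.03 on day 6. RBL1, the gene of p107 and itself an E2F target, fell by 1.01 in HCF-2 Fn3nc* (adjusted p = 1.93e-06) and had a value of 0.09 in HCF-2 WT. RBL2, the gene of p130, rose by 0.66 in HCF-2 Fn3nc*, and its 0.46 in HCF-2 WT was under the fold threshold. RBL1 stands under 2 gene IDs in the table, and the second ID fell by 1.602 in HCF-2 Fn3nc*. Of 7 genes of the MuvB core and its partners, which join E2F4 in the DREAM complex, 4 fell in HCF-2 Fn3nc* by day 6 (LIN52 by 0.94, LIN54 by 0.67, MYBL2 by 0.61 and LIN9 by 0.55), and LIN37, RBBP4 and FOXM1 were not called. Of all genes, 15.4% were lower there. From day 2 to day 6 in that line edgeR called 0 of the 7, with 3 at an unadjusted p under 0.05. It called 0 of the 4 pocket protein IDs there, with 2 at an unadjusted p under 0.05. The share of all genes called in that comparison was 2.86%. In HCF-2 WT edgeR called 0 of the 7 by day 6, against 21.2% of all genes, with 3 at an unadjusted p under 0.05.

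Of the 8 cyclins and kinases of G1 that phosphorylate pocket proteins, CCND2 rose in both lines, by 0.68 in HCF-2 WT and 0.65 in HCF-2 Fn3nc*. CCNE1 and CCNE2, the cyclins E, fell in HCF-2 WT by 0.69 and 0.75. CCND3, CDK2, CDK4 and CDK6 were not called in either line. CCND1 was lower in HCF-2 Fn3nc* than in HCF-2 WT by a log2 difference of -1.12 on day 1 and -0.95 on day 6. Of 7 CDK inhibitors, CDKN1A, the gene of p21, fell by 2.04 in HCF-2 Fn3nc* and CDKN2D by 0.57. In HCF-2 WT CDKN1C, the gene of p57, rose from 0.396 and 0.817 to 3.77 and 3.58 CPM, and CDKN2B fell by 0.68. CDKN1B, CDKN2A and CDKN2C were not called in either line. Of 12 partners of E2F6 in its Polycomb complex, RYBP and PCGF6 fell and CBX3 rose in HCF-2 Fn3nc*, by 0.62, 0.50 and 0.54, and L3MBTL2 fell by 0.52 in HCF-2 WT. PCGF6, CBX3 and L3MBTL2 lay near the fold threshold. MGA, MAX, RING1, RNF2, YAF2, WDR5, HDAC1 and HDAC2 were not called in either. Over all genes, 21.2% were called by day 6 in HCF-2 WT and 24.3% in HCF-2 Fn3nc*. From day 2 to day 6 in HCF-2 Fn3nc* edgeR called 0 of the 8 cyclins and kinases, 1 of the 7 inhibitors as lower (CDKN1A) and 0 of the 12 partners. At an unadjusted p under 0.05 there were 0, 2 and 4. The share of all genes called in that comparison was 2.86%.

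**Figure D4:**
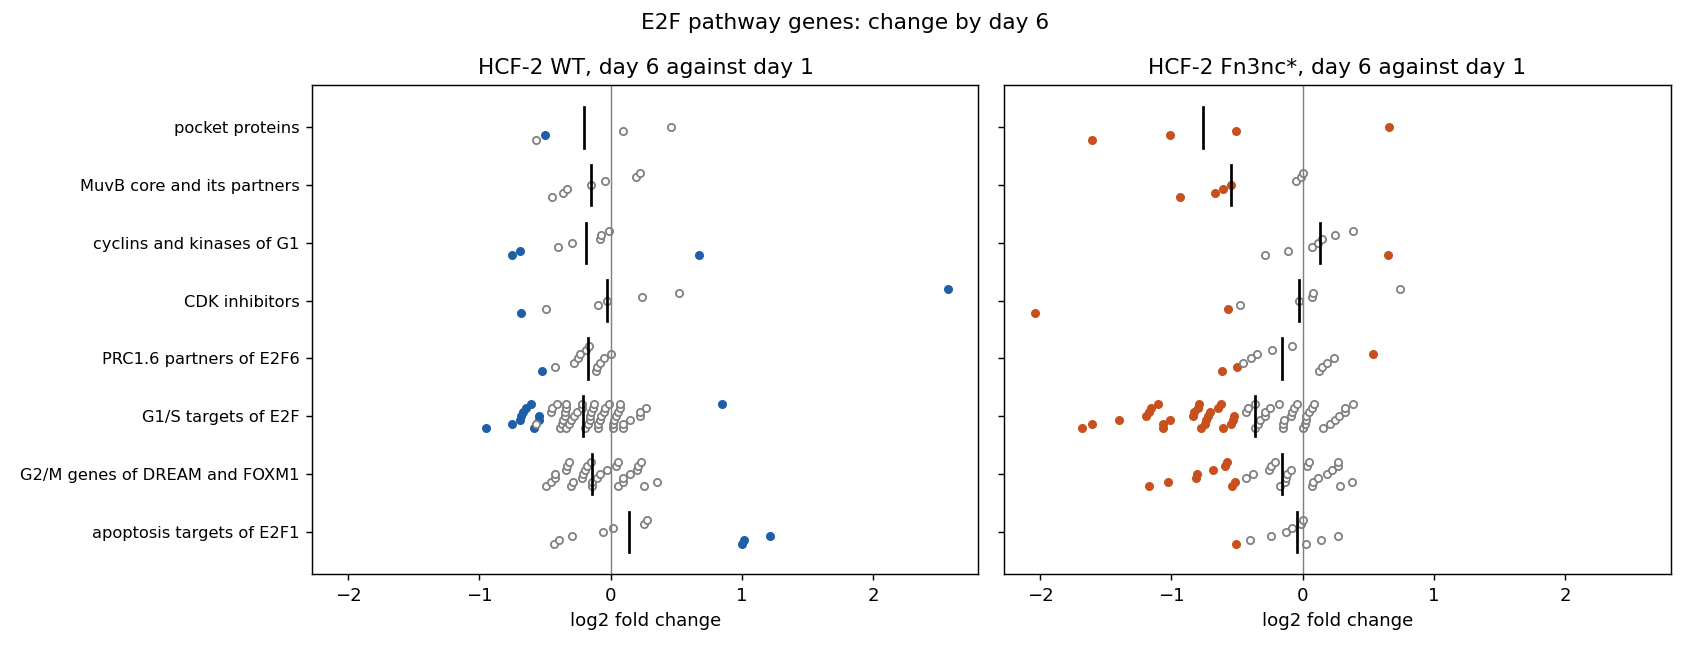
Change by day 6 (horizontal axis, log2 fold change) of the genes of 8 lists (vertical axis) in HCF-2 WT (left) and HCF-2 Fn3nc* (right). Each point is 1 gene ID, filled where it passed the test, vertical offset only separates points, and black bars are list medians. Of the 56 G1/S gene IDs, 10 fell in HCF-2 WT and 25 in HCF-2 Fn3nc*, where 8.04% and 15.4% of all genes did.

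Among the S-phase genes that E2F is known to drive, more fell than rose in both lines. Of 55 G1/S targets (56 gene IDs), 1 rose and 10 fell by day 6 in HCF-2 WT, where 13.2% and 8.04% of all genes did, with a median of -0.21 on the log2 scale against -0.01 over all genes tested. CDT1, a licensing factor of replication origins, was the one that rose, by 0.85 (adjusted p = 9.62e-05), while GINS4 of the replicative helicase fell by 0.95 (adjusted p = 1.71e-05). In HCF-2 Fn3nc* edgeR called 0 as higher and 25 as lower, where 8.89% and 15.4% of all genes were, with 42 at an unadjusted p under 0.05 and a median of -0.36 against 0. With 1 gene ID per symbol, a choice made after the values were seen, 24 of 55 fell. From day 2 to day 6 edgeR called 0 of the 56 in HCF-2 Fn3nc*, where 2.86% of all genes were called, with 20 at an unadjusted p under 0.05.

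CDT1 fell by 1.68 in HCF-2 Fn3nc* by day 6 (adjusted p = 1.79e-07). It was 222 and 218 CPM on day 1, 91.8 and 105 on day 2, and 71.0 and 69.9 on day 6 in that line. In HCF-2 WT CDT1 was 66.0 and 73.7 CPM on day 1 and 124 and 132 on day 6. The day 1 libraries of HCF-2 Fn3nc* were thus the highest, as for E2F2 and E2F8. MCM2 of the replicative helicase, CDC25A, a phosphatase that activates CDK2, and POLA1 of DNA polymerase alpha fell by 1.19, 1.17 and 1.15. On day 1, 20 of the 56 gene IDs were higher and 3 lower in HCF-2 Fn3nc* than in HCF-2 WT, where 18.7% and 15.5% of all genes were, and with 1 ID per symbol 19 of 55 were higher. On day 2 edgeR called 0 as higher and 2 as lower (9.08% and 7.57% of all genes), with 30 at an unadjusted p under 0.05. On day 4 there were 2 higher and 2 lower (10.1% and 12.1%), and on day 6 there were 5 and 3 (13.2% and 16.8%).

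Of 30 G2/M genes, edgeR called 0 in HCF-2 WT by day 6, where 21.2% of all genes were called, with 14 at an unadjusted p under 0.05. In HCF-2 Fn3nc* 9 of the 30 fell by day 6, where 15.4% of all genes did. From day 2 to day 6 in that line 1 of the 30 (HMMR) was called, as lower, against 2.86% of all genes, with 16 at an unadjusted p under 0.05. Counted from day 1 to day 6 in HCF-2 Fn3nc*, HMMR, PRC1, NUSAP1 and NEK2, which act on the mitotic spindle or centrosome, fell by 1.17, 1.02, 0.81 and 0.81. Of 10 pro-apoptotic genes that E2F1 can induce, BBC3, HRK and PMAIP1 rose in HCF-2 WT by 1.21, 1.02 and 1.00, in 2 of 2 libraries each. By day 6, 13.2% of all genes were higher in that line. From day 2 to day 6, 3 of the 10 were higher and 1 lower there, where 20.8% of all genes were called. In HCF-2 Fn3nc* TP73 fell by 0.51, near the fold threshold of 0.5, and the other 9 were not called. The share of all genes called by day 6 was 24.3% in that line. From day 2 to day 6 edgeR called 0 of the 10 there, against 2.86% of all genes, with 0 at an unadjusted p under 0.05. E2F1 itself rose in both lines, and its part in these changes was not tested. Of 6 germ-line genes that E2F6 silences in mouse somatic cells, 2 were tested, STAG3 and SMC1B, and STAG3 was not called in either line by day 6. SMC1B, a meiotic cohesin subunit, was 8.11 and 8.40 CPM in HCF-2 Fn3nc* on day 1, 2.85 and 2.16 on day 2, 0.730 and 0.241 on day 6, and 0.0440 and 0.318 in HCF-2 WT on day 1. It fell by 4.09 on the log2 scale by day 6 in HCF-2 Fn3nc* (adjusted p = 7.19e-06), and by 2.36 from day 2 to day 6 (adjusted p = 0.00696). The day 1 libraries of HCF-2 Fn3nc* were highest for SMC1B and for E2F6.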

How the data were processed

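RNA was poly(A)-selected from Flp-In T-REx-HEK-293 cells and sequenced as 125 nt single-end reads in 16 libraries (8 groups of 2). The authors aligned reads with STAR to GRCh37 and deposited RSEM 1.3.0 expected counts and FPKM per gene. The sources used here do not state whether molecular labels of the library kit were used. Expected counts were rounded to whole numbers, scaled by TMM and tested with edgeR 4.0.16 (quasi-likelihood, R 4.3.3), with Benjamini-Hochberg adjustment over 18925 genes with FPKM above 1 in at least 1 library. Comparisons within a line used its 8 libraries, and comparisons between lines used all 16. Calls needed a log2 change beyond 0.5 with an adjusted p under 0.05, and a difference of responses needed an adjusted p under 0.05 alone. DESeq2 1.42.0, limma 3.58.1 on log2(FPKM + 1) and log2(FPKM + 0.1), other filters and scalings, a replicate block and leaving out each library were the alternatives. Values of single list genes were not followed under these alternatives. The script was tested on simulated data.

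All 10 members are named, with the 3 genes of highest Pearson r for each (log2 CPM, prior count 2, mean CPM of at least 5), every gene of lists of up to 12 as counts or values, and from longer lists the 4 called genes of smallest adjusted p by day 6 in each line. The members and lists were chosen with earlier results of these data known. The count of 1 gene ID per symbol and calls by adjusted p alone were added after the data were seen. Duplicate libraries differed beyond sampling noise in every group (chi-square per gene of 2.8 to 18.7). Gene positions are from GENCODE lifted to GRCh37, and promoter sequences from RefSeq on GRCh38.p14.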

Additional observations from a re-analysis of the deposited data

Results flagged for a closer look

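The day 6 response differed between the lines by a test of the difference itself for 7 members counted from day 1. As HCF-2 Fn3nc* minus HCF-2 WT on the log2 scale, the differences were -1.83 for E2F2, -0.583 for E2F3, 0.501 for E2F4, -0.677 for E2F6, -0.758 for E2F7, -1.20 for E2F8 and 0.628 for TFDP1. Counted from day 2, they were -0.536 for E2F2, 0.530 for E2F4 and 0.290 for TFDP1. The TFDP1 call (adjusted p = 0.0438 with edgeR) was lost under 4 of the 8 alternatives other than leaving out 1 library. The other members named above did not pass the test from day 2 with edgeR: the difference was 0.05 for E2F8 (adjusted p = 0.845), 0.05 for E2F3 (adjusted p = 0.744), -0.23 for E2F6 (adjusted p = 0.304) and -0.15 for E2F7 (adjusted p = 0.32).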

How the results depend on the processing

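Over 140 member results, 2686 values under the alternatives kept their direction and side of the threshold, 28 fell below it, 72 rose past it and 44 changed sign, the last in 16 results of which 0 were called. The number of members called moved by more than 1.5 times as follows. With adjusted p alone, added after the data were seen, it was 1 on day 4, 3 on day 6 and 5 from day 2 to day 6 in HCF-2 WT, 8 on day 2 and 4 from day 2 to day 6 in HCF-2 Fn3nc*, and 5, 10 and 7 between the lines on days 2, 4 and 6. On day 2 in HCF-2 WT it was 1 with DESeq2, with all 16 libraries in 1 fit and with no FPKM filter, which was E2F5 in each. With limma it was 5 for the difference in response from day 2 at both pseudocounts, and 6 and 5 between the lines on day 6 at pseudocounts of 0.1 and 1. Leaving out 1 library gave 0 to 1 (day 2) and 1 to 2 (day 6) for HCF-2 WT, 3 to 4 (day 2) and 7 to 8 (day 6) for HCF-2 Fn3nc*, 3 to 4 between the lines on days 4 and 6, and 2 to 4 for the difference in response from day 2.

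The change of the log2 ratio of activating over repressive E2Fs by day 6 was -0.22 in HCF-2 Fn3nc*, and -0.55 without E2F6, -0.51 in CPM and -0.29 as a mean of log2 FPKM. In HCF-2 WT it was 0.53, and 0.38 as a mean of log2 FPKM. Over atypical E2Fs it was 0.56 in HCF-2 Fn3nc* and 0.27 in CPM. Leaving out 1 library gave -0.24 to -0.20, 0.45 to 0.60 and 0.53 to 0.59 for these, and 0.26 to 0.35 over atypical E2Fs in HCF-2 WT. The causes were not tested.

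The values that changed sign follow, on the log2 scale, each after its value as reported. With limma at pseudocounts of 0.1 and 1, the line difference of TFDP2 went from 0.23 to -0.35 and -0.33 on day 4, with adjusted p under 0.05 in each, and from 0.12 to -0.073 and -0.070 on day 6. E2F4 between the lines on day 1 went from -0.12 to 0.0071 and 0.0070, E2F6 on day 6 from -0.08 to 0.048 and 0.045, and E2F5 on day 2 in HCF-2 Fn3nc* from -0.03 to 0.16 and 0.15. In HCF-2 WT, E2F8 on day 4 went from 0.01 to -0.088 and -0.070, and TFDP1 on day 6 from 0.02 to -0.052 and -0.051. E2F8 in the difference in response from day 2 went from 0.05 to -0.0043 at a pseudocount of 1. With no FPKM filter, HCF-2 WT values were -0.016 for E2F8 on day 4, -0.014 for TFDP1 (from 0.02) and -0.013 for E2F6 (from 0.02) on day 6, and 0.0042 for TFDP2 on day 2 (from -0.01). TFDP2 from day 2 to day 6 in HCF-2 Fn3nc* went from -0.00044 to 0.012 with no filter, 0.015 in 1 fit and 0.00033 with the replicate block, and E2F3 on day 6 in HCF-2 WT from -0.01 to 0.015 in 1 fit and 0.010 with FPKM above 1 in every library. Leaving out 1 library gave, in HCF-2 WT, -0.048 to 0.053 for E2F3, -0.050 to 0.089 for E2F6 and -0.015 to 0.055 for TFDP1 on day 6, -0.0605 to 0.019 for E2F4 and -0.032 to 0.0053 for TFDP2 on day 2, and -0.023 to 0.24 for E2F5, -0.15 to 0.0032 for E2F7 and -0.19 to 0.19 for E2F8 on day 4. It gave -0.14 to 0.076 for E2F5 on day 2 and -0.054 to 0.054 for TFDP2 from day 2 to day 6 in HCF-2 Fn3nc*, -0.021 to 0.12 for TFDP1 between the lines on day 2, and -0.016 to 0.12 for E2F8 in the difference in response from day 2.

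Same-numbered libraries did not deviate alike on all days: between days of a line their deviations correlated at -0.51 to 0.433. As values of both signs occurred, this check cannot tell whether duplicates of different days were linked under other numbers. The fits without a replicate block treat the libraries as independent. With the replicate block the line difference called 4 members on day 6 and the difference in response from day 2 called 2, with TFDP1 lost. Duplicates limit the precision of every value, and intervals cover the spread between these libraries only.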
